A study of Mus musculus with 18 samples.

Results

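The genes described here are those of the complement system: C1qa, C1qb and C1qc, C4b, C2, C3, Cfb, Serping1 and C3ar1. They were selected by gene symbol, with earlier results of these data known, and all 9 were found among the 54281 genes of the deposited count table. All 9 passed the filter on low counts (at least 10 counts in at least 6 mice), as did 15210 genes in all.

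Complement is a set of secreted proteins and their receptors that tags microbes, cell debris and dying cells. In the classical pathway C1q, built from A, B and C chains, recognizes its targets. Its partner proteases C1r and C1s then act in turn, and C1s cleaves C4 and C2 into a convertase that splits C3. In the alternative pathway factor B (Cfb), cut by factor D, builds a convertase on C3 fragments already deposited. Both routes release the small fragment C3a, which acts on the receptor encoded by C3ar1, while C1 inhibitor (Serping1) blocks C1r and C1s. The liver makes most plasma complement, but vascular fibroblasts, smooth muscle cells and macrophages transcribe components locally, and tissue macrophages are a well known source of C1q.

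RNA came from descending aortas of male C57BL/6 mice, taken from the end of the arch to the diaphragm with the intimal, medial and adventitial layers. There were 6 HGPS mice of 64 to 75 d, 6 wild-type (WT) mice of 62 d, apart from replicate 6 at 95 d, and 6 WT mice of 609 to 762 d, called 2-mo HGPS, 2-mo WT and 24-mo WT here. The HGPS mouse carries the LMNAG609G knock-in allele, which is present in every cell and yields progerin, a truncated lamin A, from the endogenous Lmna locus. The study describes the model as homozygous for this allele, which the labels do not state. No group was treated with a drug, and a count per gene cannot show the splicing change it causes. The comparison of 2-mo HGPS with 2-mo WT mice asks what the mutation changes early in life, and the 24-mo WT mice set natural aging beside it.

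Each mouse had between 12413229 and 30844775 counts. Levels are given in CPM, counts scaled by TMM to a common library total, over 6 mice a group, with ± for the SD. Calls rest on edgeR's quasi-likelihood test and need both a 1.5-fold difference and an adjusted p under 0.001. The libraries were rich in smooth muscle transcripts: 8 smooth muscle markers together reached between 34155 and 43387 CPM in 2-mo WT mice. The same sum lay between 22202 and 31245 CPM in HGPS mice. In whole tissue, fewer cells of a type and less RNA per cell cannot be told apart.

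All 9 genes lie on the minus strand of GRCm38. C1qb, C1qc and C1qa are neighbors on chromosome 4, at chr4:136880129-136886187, chr4:136889804-136893065 and chr4:136895917-136898803, with 3616 and 2851 bases between them. C4b (chr17:34728380-34743882), Cfb (chr17:34856374-34862518) and C2 (chr17:34862604-34898265) lie in the class III region of the major histocompatibility complex, and only 85 bases separate Cfb from C2. C3 is elsewhere on that chromosome (chr17:57203970-57228136), Serping1 is at chr2:84765387-84775444 and C3ar1 is at chr6:122847138-122856161. Reads of C4b can be shared with its near-identical neighbor C4a, which had at most 7 counts in any mouse. The readthrough gene Gm20547, which spans C2 and Cfb on the same strand, had at most 45.

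Promoter windows of RefSeq (GRCm38.p6, from 250 bases before to 50 after the start) were matched for 4 of the 9 genes: C1qb, C1qc, C3 and C3ar1. They were searched on both strands for the PU.1-type motif GAGGAA, the binding letters of a myeloid transcription factor, and for STAT (TTCNNNGAA), IRF (GAAANNGAA) and NF-kappa-B (GGANNTTCC) motifs. The 2 C1q windows each held GAGGAA, and none of the 4 motifs was in the C3 or C3ar1 window. A GAGGAA is a common match, present in 28.1% of 32544 promoter windows of the same length, against 8.33%, 8.53% and 4.27% for the other 3 motifs in that order. The stretches of 30 bases around the C1q matches are shown because the C1q chains were the members that varied most closely together among mice of a group. Each is written 5′ to 3′ on the minus strand with the motif in capitals, and the C1qc window reads it on the opposite strand.
C1qb, chr4:136886213-136886242: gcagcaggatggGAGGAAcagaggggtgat
C1qc, chr4:136893090-136893119: gacggcagacacTTCCTCattttggcacac
The motif began 30 bases before the RefSeq start of C1qb and 193 bases before that of C1qc, which are not the gene ends given above from GENCODE.

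Complement genes were mostly higher in the 2-mo HGPS aorta. C1qb, C4b, C3 and C3ar1 rose between 1.82-fold and 3.02-fold over 2-mo WT mice and were called, so 4 of 9 genes were called, all higher, where 9.50% of all tested genes were called and 5.27% were called higher. At an adjusted p under 0.05 alone, 7 genes were higher and Serping1 was lower, 8 of 9, beside 43.2% of all tested genes. The groups did not overlap in 7 of 9, beside 21.9% of all tested genes. C2 was the only member with an adjusted p above 0.05. Without HGPS replicate 6 or without WT replicate 4, 2 of the 4 calls were left (C3 and C4b).

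**Figure D1:**
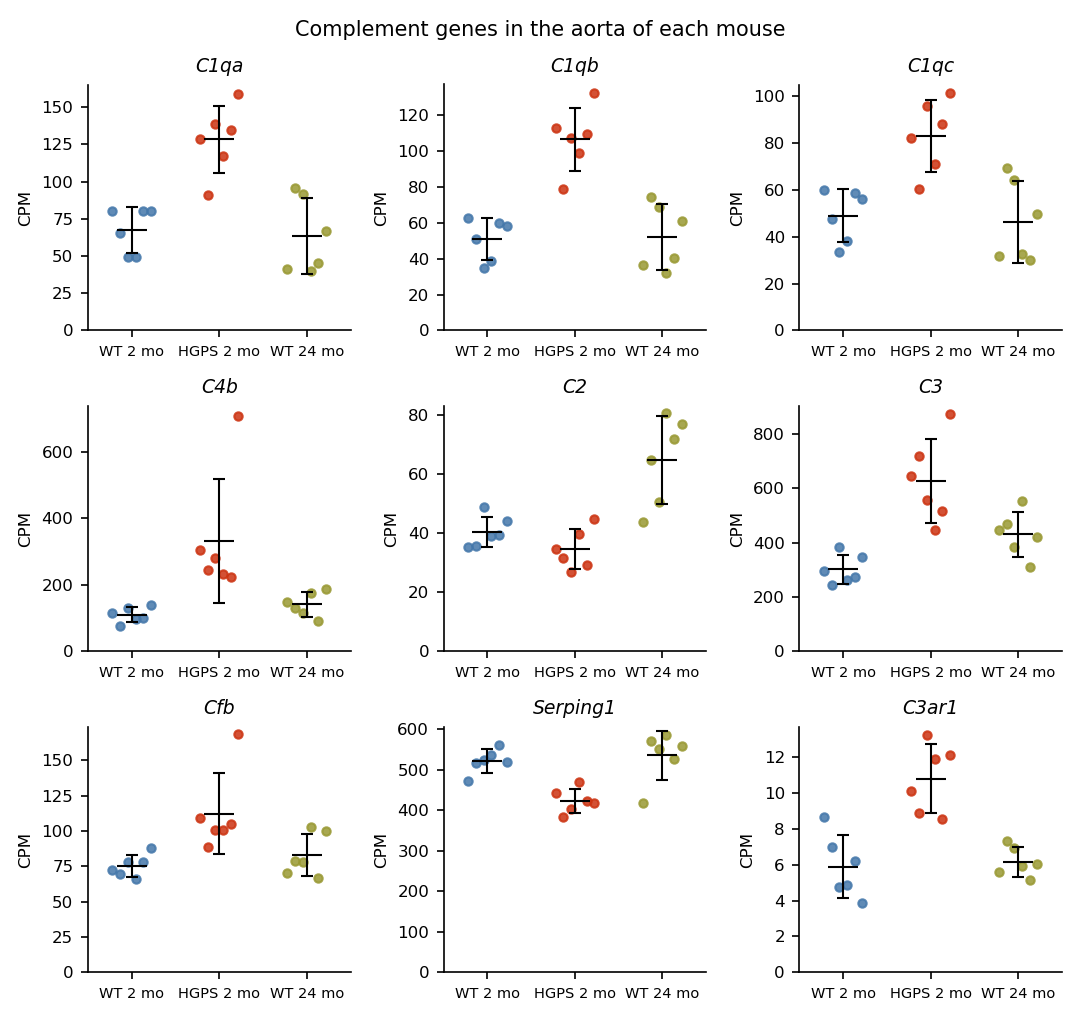
CPM of the 9 complement genes (y axis, from 0) in each mouse, by group (x axis); each point is 1 mouse and the black bar is the mean ± SD of 6 mice. The 6 HGPS mice lay above every 2-mo WT mouse for C1qa, C1qb, C1qc, C4b, C3 and Cfb and below every one for Serping1, and HGPS replicate 6 reached 706.9 CPM of C4b.

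The C1q chains, which together form the recognition molecule of the classical pathway, were all higher in HGPS mice, C1qb past the cut-offs of a call. C1qa lay between 49.01 and 80.3 CPM in 2-mo WT mice (median 72.8) and between 91.2 and 159 CPM in HGPS mice (median 132). C1qb lay between 34.8 and 62.5 CPM (median 54.6) in WT and between 78.9 and 132 CPM (median 109) in HGPS. C1qc lay between 33.6 and 59.8 CPM (median 51.9) in WT and between 60.2 and 101 CPM (median 85.1) in HGPS. Every HGPS mouse was therefore above every 2-mo WT mouse for each chain, although for C1qc by less than 1 CPM. C1qb rose by a log2 fold change of 1.07 (SE 0.20, edgeR adjusted p = 0.000304). C1qa and C1qc differed by log2 fold changes of 0.92 (SE 0.21, edgeR adjusted p = 0.00189) and 0.76 (SE 0.21, edgeR adjusted p = 0.00627), past the fold but not past the p of the call. DESeq2 called both of them (adjusted p = 5.72e-05 and 0.000852).

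Macrophage markers moved with C1q. Of 12 markers 7 were called higher in HGPS mice and none lower. They were Cd68, Adgre1 (the F4/80 antigen), Csf1r, Lyz2, Mrc1, Cd163 and Ctss. Mertk, a receptor for dying cells, did not follow, with a log2 fold change of -0.02 (SE 0.15). The 12 markers summed to between 583 and 826 CPM in 2-mo WT mice and between 1015 and 1751 CPM in HGPS mice, with no overlap. Per 1000 CPM of that sum, C1qa stood at 90.7 ± 9.85 in 2-mo WT and 93.5 ± 5.54 in HGPS mice, and C3ar1 at 7.98 ± 1.86 and 7.95 ± 1.32. C1qb went from 68.3 ± 7.69 to 77.9 ± 2.64 and C1qc from 65.9 ± 7.70 to 60.6 ± 5.81, so the chains differed less per macrophage marker than they did in CPM. The same was true of C3, which went from 421 ± 117 to 465 ± 132, and of C4b, from 153 ± 41.6 to 234 ± 87.4. C2, Cfb and Serping1 were lower in HGPS mice on this measure. The sum itself was higher in every HGPS mouse than in every 2-mo WT mouse. Dividing by it therefore lowers the HGPS values of any gene against the WT values, whatever cell makes it. With the macrophage score as a covariate, the log2 fold changes of C1qa, C1qb and C1qc were -0.22, -0.0013 and -0.31. C3 differed by 1.13 (edgeR adjusted p = 0.00906) and C4b by 1.21 (edgeR adjusted p = 0.0638) in that fit, where none of the 9 was called. The score differs between the groups and varies with the C1q chains within them (r of 0.90 to 0.95). This fit therefore removes part of the group difference by construction, most for genes that follow the score. The part of macrophages in these differences was not tested.

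**Figure D2:**
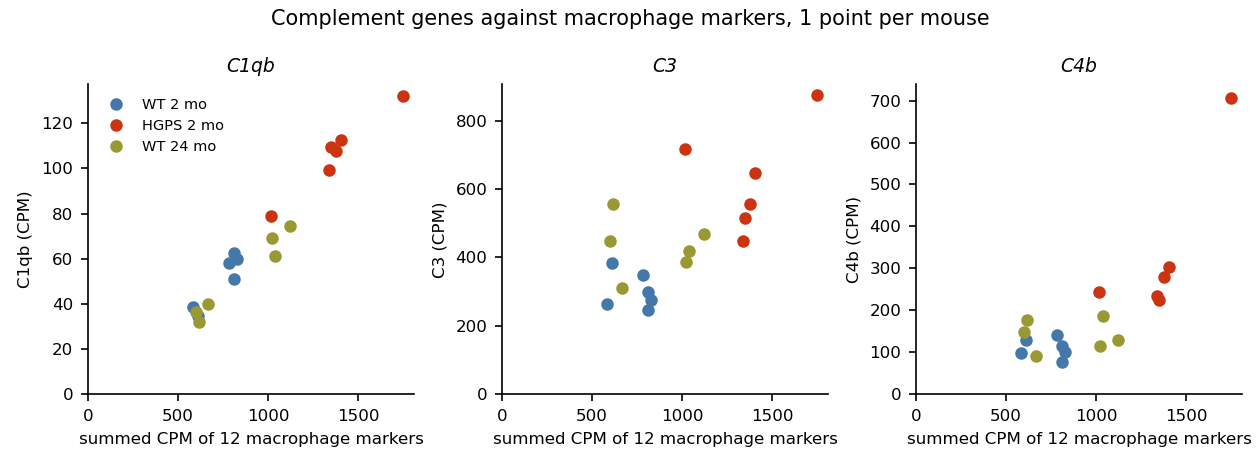
C1qb, C3 and C4b (y axis, CPM) against the summed CPM of 12 macrophage markers (x axis), 1 point per mouse, colored by group. C1qb rises with the marker sum, from 32.05 CPM in 24-mo WT replicate 4 to 132 CPM in HGPS replicate 6. Per 1000 CPM of the sum, C1qb was at 60.8 ± 5.71 in 24-mo WT and 77.9 ± 2.64 in HGPS mice. C3 and C4b of WT mice spread with no such line.

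C4b and C2 encode the proteins that join into the classical convertase, and they did not move together. C4b lay between 77.4 and 140.4 CPM in 2-mo WT mice (median 108) and between 224 and 707 CPM in HGPS mice (median 262), with no overlap. It had the highest fold change among the 9 genes, 3.02-fold (log2 1.59, SE 0.26, edgeR adjusted p = 7.3e-05). HGPS replicate 6 stood far above the other HGPS mice, whose highest was 304 CPM, and without it the log2 fold change was 1.22 (edgeR adjusted p = 3.07e-05). C2 lay between 35.4 and 48.7 CPM in 2-mo WT mice (median 39.4) and between 26.9 and 44.9 CPM in HGPS mice (median 33.1). These ranges overlap and the log2 fold change of C2 was -0.23 (SE 0.15, edgeR adjusted p = 0.221).

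C3, on which all pathways converge, and Cfb, the protease precursor of the alternative pathway, were both higher in HGPS mice, C3 by more. C3 lay between 245 and 383 CPM in 2-mo WT mice (median 287) and between 449 and 874 CPM in HGPS mice (median 601), without overlap. It rose 2.07-fold (log2 1.05, SE 0.16, edgeR adjusted p = 3.68e-05) and kept its call whichever of the 18 mice was left out. Cfb lay between 65.9 and 88.3 CPM in 2-mo WT mice (median 75.1) and between 88.9 and 169 CPM in HGPS mice (median 103). The lowest HGPS mouse was just above the highest WT mouse, and the log2 fold change was 0.57 (SE 0.14, edgeR adjusted p = 0.00238), under the 1.5-fold line. White fat markers, 8 genes, also differed in this comparison: their sum lay between 213 and 921 CPM in 2-mo WT and between 769 and 2191 CPM in HGPS mice, and 1 of 8 was called higher. The 8 brown fat markers summed to between 109.8 and 616 CPM in 2-mo WT and between 467 and 1708 CPM in HGPS mice, and 2 were called higher. At an adjusted p under 0.05 alone, 7 of 8 white and 8 of 8 brown fat markers were higher. The share of all tested genes was 43.2% in either direction. Median log2 fold changes were 1.55 for the white and 2.00 for the brown fat markers. With scores of white and brown fat in the fit, C3 differed by 0.77 (edgeR adjusted p = 0.00498) and C4b by 1.24 (edgeR adjusted p = 0.00324), and neither was called. The fat scores also differ between the groups, so this fit too removes part of the group difference by construction.

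Serping1, the inhibitor of C1r and C1s, was the member with the least spread and went the other way. It lay between 472 and 560.0 CPM in 2-mo WT mice (median 522) and between 383 and 469.9 CPM in HGPS mice (median 421). All HGPS mice were below all 2-mo WT mice, by a narrow gap. The log2 fold change was -0.30 (SE 0.07, edgeR adjusted p = 0.00309), too small in fold for a call. Among 8 fibroblast markers 2 were called lower in HGPS mice, and their sum ran from 11169 to 14129 CPM in 2-mo WT and from 7367 to 11560 CPM in HGPS mice. The part of these markers in the Serping1 difference was not tested.

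C3ar1, the receptor for C3a, was the member with the fewest reads, between 60 and 381 counts per mouse. It lay between 3.87 and 8.68 CPM in 2-mo WT mice (median 5.54) and between 8.52 and 13.2 CPM in HGPS mice (median 11.0). Only 1 WT mouse reached into the HGPS range. C3ar1 rose 1.82-fold (log2 0.86, SE 0.17, edgeR adjusted p = 0.000439), and the call was lost in 7 of 18 fits that left out 1 mouse: HGPS replicate 3, 4 or 6, or 2-mo WT replicate 3, 4, 5 or 6. The log2 fold change in these 18 fits stayed between 0.76 and 1.01.

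No member was called with natural aging, and C2 and C3 had the lowest p-values. In 24-mo against 2-mo WT aorta none of the 9 genes was called by edgeR, where 2.00% of all tested genes were, 2 had an unadjusted p under 0.05, and DESeq2 called 1 (C2). At an adjusted p under 0.05 alone, C2 and C3 were higher, 2 of 9 beside 11.7% of all tested genes, and no gene had groups without overlap, beside 6.28%. C2 lay between 43.7 and 80.5 CPM in 24-mo mice (median 68.4), 1.60-fold over 2-mo WT mice (log2 0.68, SE 0.15, edgeR adjusted p = 0.00393, DESeq2 adjusted p = 0.000139). C3 lay between 310.2 and 555 CPM (median 433), with a log2 fold change of 0.51 (SE 0.16, edgeR adjusted p = 0.0372). Only the lowest 24-mo mouse in C2 was inside the 2-mo range. C4b at 141 ± 36.5 CPM against 110.1 ± 22.9 CPM had a log2 fold change of 0.36 (SE 0.25, edgeR adjusted p = 0.407).

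The other 6 genes had log2 fold changes between -0.09 and 0.14 with age, none larger than its SE at 2 decimals. The C1q chains varied more among the 24-mo mice than among the younger ones: C1qa had a coefficient of variation of 40.2% in 24-mo WT, 22.5% in 2-mo WT and 17.8% in HGPS mice. In 24-mo mice C1qa read 41.3, 95.5, 91.8, 39.6, 45.1 and 66.8 CPM in replicates 1 to 6. The macrophage marker sum of the same mice was 601, 1122, 1023, 618.5, 667 and 1040 CPM, so the mice with low C1qa were those with the low sum. Per 1000 CPM of that sum, C1qa stood at 73.3 ± 11.2 in 24-mo WT mice, against 90.7 ± 9.85 in 2-mo WT mice.

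**Figure D3:**
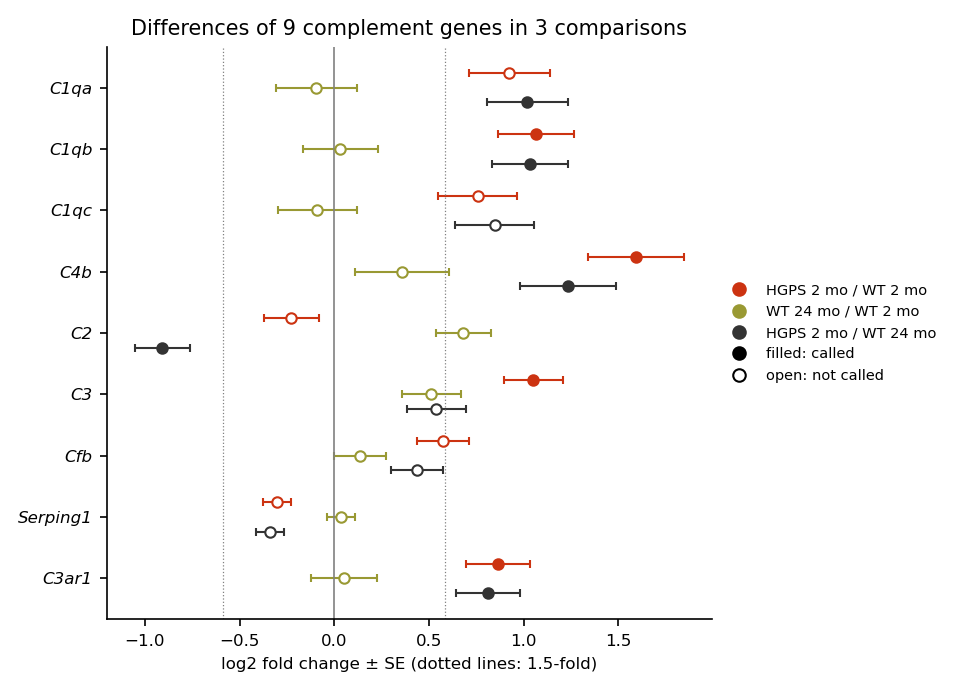
Log2 fold change ± SE (x axis) of the 9 genes (y axis) in 3 comparisons, colored by comparison; filled points were called and dotted lines mark 1.5-fold. C4b has the highest value in HGPS against 2-mo WT mice (1.59), and C2 is the gene with the lowest value in HGPS against 24-mo WT mice (-0.91).

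Set against the 24-mo WT aorta, the young HGPS aorta had more C1qa, C1qb, C4b and C3ar1 and less C2. C1qa, C1qb, C4b and C3ar1 rose and C2 fell, so 5 of 9 genes were called, beside 12.1% of all tested genes. All 9 had an adjusted p under 0.05, beside 47.3%, and 3 (C1qb, C4b and C3ar1) had groups without overlap, beside 22.2%. C2 fell by 0.91 on the log2 scale (SE 0.15, edgeR adjusted p = 5.06e-05), and this call held whichever mouse was left out. C4b rose by 1.23 (edgeR adjusted p = 0.000535), C1qb by 1.03 (edgeR adjusted p = 0.000304), C1qa by 1.02 (edgeR adjusted p = 0.000715) and C3ar1 by 0.81 (edgeR adjusted p = 0.000589). C1qc differed by 0.85 (edgeR adjusted p = 0.00245), C3 by 0.54 (edgeR adjusted p = 0.00778), Cfb by 0.44 (edgeR adjusted p = 0.0131) and Serping1 by -0.34 (edgeR adjusted p = 0.00103). The count of 5 rested on single mice. It was 1 without 24-mo WT replicate 5, 2 without HGPS replicate 1 or 6 or 24-mo WT replicate 1, and 3 without HGPS replicate 3 or 4 or 24-mo WT replicate 4 or 6. This comparison shares the HGPS mice and the 24-mo mice with the comparisons above.

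For levels between genes, CPM was divided by the length of the reference transcript in kilobases. Serping1 was the most abundant of the 9 in every group, at 295 CPM per kb in 2-mo WT, 239 in HGPS and 303 in 24-mo WT mice. C1qa and C3 followed in 2-mo WT mice at 64.8 and 58.9 CPM per kb, which do not differ beyond their spread, then C1qb at 46.7 and C1qc at 40.7. Cfb stood at 27.4, C4b at 20.5 and C2 at 15.3 CPM per kb, and C3ar1 was last at 1.37. In HGPS mice C4b reached 61.7 CPM per kb, above Cfb at 40.8, while C2 was at 13.1. The inhibitor transcript therefore exceeded that of C1qa 4.55-fold in 2-mo WT mice and 1.94-fold in HGPS mice, by the ratio of these means.

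How the genes varied among mice of the same group separated them further. Deviations from the group mean in log2 CPM were correlated over the 18 mice as a description, since all genes of a mouse share its library and tissue composition. The C1q chains had r of 0.96 to 0.98 with each other, and r of 0.93, 0.95 and 0.90 (C1qa, C1qb, C1qc) with the macrophage score. C3ar1 had r of 0.55 with that score and -0.55 with the smooth muscle score. The C1q chains also had r of 0.58 to 0.60 with the endothelial score and -0.66 to -0.54 with the mesothelial score. Their r with the score of hepatocyte markers, of which only 1 passed the filter, was 0.59 to 0.65. C3 and C4b had their highest r with the white fat score (0.57 and 0.50). C3, C4b and Cfb also varied together: r was 0.88 for C4b and Cfb, 0.80 for C3 and C4b, and 0.63 for C3 and Cfb. Without HGPS replicate 6 these were 0.76, 0.75 and 0.46. C1qa and C3 had r of -0.02. Serping1 had r of -0.56 with the brown fat score, -0.51 with the white fat score and 0.24 with the fibroblast score. C2 had r of 0.63 with its neighbor Cfb and 0.62 with Serping1, but -0.09 with C1qa. Without HGPS replicate 6 the first 2 of these were 0.53 and 0.70, so Cfb was then closer to C2 than to C3.

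**Figure D4:**
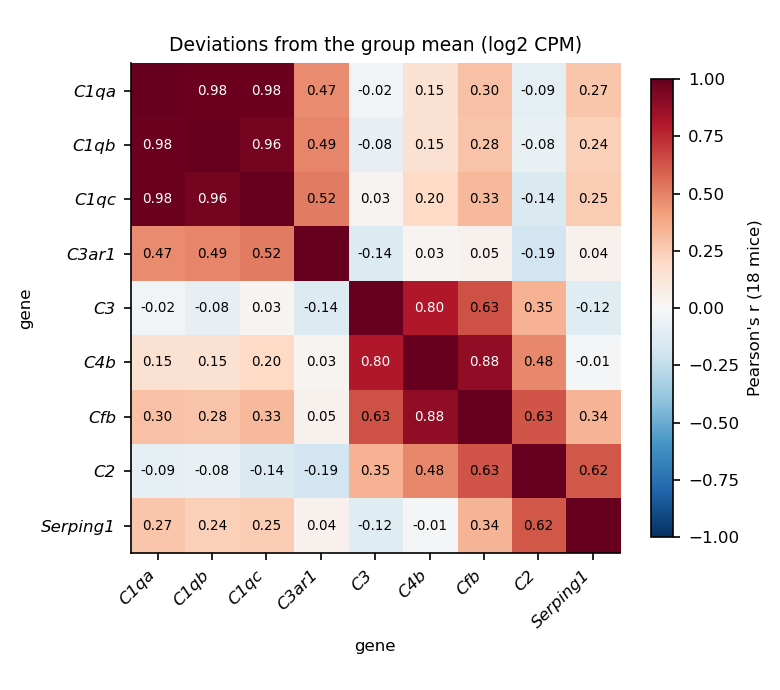
Pearson's r between the 9 genes (both axes) of the deviations from the group mean in log2 CPM, over 18 mice; the color runs from -1 to 1. The C1q block reads 0.96 to 0.98, and the block of C3, C4b and Cfb reads 0.63 to 0.88.

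Outside the 9 members, the genes most like each of them by this measure, among 12009 tested genes with a mean count of at least 50, differed by block. C1qa and C1qb were most like Fcgr3, an Fc receptor of myeloid cells (r = 0.94 and 0.95). C1qc was most like Csf1r, the receptor for macrophage growth factor (r = 0.94). C2 was most like Tnfaip6, an inflammation-induced hyaluronan-binding protein (r = 0.88), and C1s1 (r = 0.85), the protease that cleaves C2. Without HGPS replicate 6 Tnfaip6 was at 0.86, level with Mcl1 (0.86), a survival gene. C4b was most like Gpat3, an enzyme of triglyceride synthesis (r = 0.86), followed by Ifi27l2a, an interferon-induced gene (r = 0.83), and Tap2, the peptide transporter of antigen presentation (r = 0.83). Without HGPS replicate 6 these were 0.76, 0.79 and 0.76. Cfb was most like Serpina3n (r = 0.89) and Lbp (r = 0.82), both acute phase genes, at 0.79 and 0.64 without that mouse. C3 was most like Sowahc (r = 0.80), Serping1 like Hmces (r = 0.92) and C3ar1 like St8sia4 (r = 0.87). Without HGPS replicate 6 these were 0.72, 0.93 and 0.88. With 12009 genes searched over 18 mice, the highest r is raised by selection, so the genes named here are a description only.

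The rest of the pathway was taken from a list of 45 further complement genes, of which 28 passed the filter. In HGPS against 2-mo WT mice 7 of the 28 were called higher and 1 lower, beside 9.50% of all tested genes called and 5.27% called higher, with a median log2 fold change of 0.36 against 0.0026 over all tested genes. Receptors made up most of it, with 5 of 7 called higher. Itgam and Itgb2, the chains of complement receptor CR3, rose by 1.12 (SE 0.17, edgeR adjusted p = 3.35e-05) and 1.15 (SE 0.18, edgeR adjusted p = 6.43e-05). Itgax, the partner of Itgb2 in CR4, rose by 2.49, Vsig4, a macrophage receptor for C3b, by 2.33, and C5ar1, the receptor for C5a, by 1.05 on the log2 scale. Itgax and Vsig4 were low in 2-mo WT mice, with at most 24 and 26 counts per mouse. All 5 of these receptors are known from myeloid cells, and the macrophage marker sums given above moved with them.

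The terminal components, which assemble the membrane attack complex, split. C7 lay between 138 and 205 CPM in 2-mo WT mice (median 176) and between 50.9 and 80.7 CPM in HGPS mice (median 60.6). It fell by 1.48 on the log2 scale (SE 0.13, edgeR adjusted p = 1.16e-07), and also against 24-mo WT mice by 1.30 (edgeR adjusted p = 1.76e-07). C6 rose by 2.36 (SE 0.47, edgeR adjusted p = 0.00054) from a low level, 2 to 16 counts per mouse in 2-mo WT and 17 to 82 in HGPS mice. Hc, which encodes C5, and C8a, C8b and C9 did not pass the filter.

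Of 5 proteases and other components that passed the filter, 1 was called in HGPS against 2-mo WT mice. Masp1, a protease of the lectin pathway, rose by 1.09 in HGPS mice (edgeR adjusted p = 0.000188) and by 1.12 in 24-mo WT mice (edgeR adjusted p = 0.000643), both against 2-mo WT. It had between 13 and 39 counts in 2-mo WT mice. C1ra and C1s1, the partners of C1q, had log2 fold changes of -0.28 (edgeR adjusted p = 0.00543) and -0.19 (edgeR adjusted p = 0.0487) in HGPS mice, opposite in sign to C1q. Cfd, factor D, which fat cells secrete, lay between 118 and 409.9 CPM in 2-mo WT and between 275 and 1485 CPM in HGPS mice and was not called (log2 1.48, SE 0.42, edgeR adjusted p = 0.00781). None of 11 regulators was called in HGPS against 2-mo WT mice, where 6 had an unadjusted p under 0.05. At an adjusted p under 0.05 alone, 2 of the 11 were higher and 3 lower, beside 43.2% of all tested genes. Of the recognition molecules besides C1q, 2 of 6 passed the filter and neither was called by edgeR. In HGPS against 2-mo WT mice 1 had an unadjusted p under 0.05 and neither had an adjusted p under 0.05. Fcna was the higher of these, at 6.16 ± 2.16 CPM in 2-mo WT and 8.94 ± 1.03 CPM in HGPS mice.

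With age, 2 of the 28 were called, both higher, Masp1 and Csmd1, beside 2.00% of all tested genes. Csmd1, a membrane regulator known mainly from brain, lay between 0.948 and 2.27 CPM in 2-mo WT mice (median 1.22) and between 5.88 and 15.9 CPM in 24-mo WT mice (median 9.76). It rose by 2.89 on the log2 scale (SE 0.37, edgeR adjusted p = 2.63e-05), and the HGPS mice, between 1.13 and 4.59 CPM, were all below the 24-mo mice. In HGPS against 24-mo WT mice, C6 and Itgam rose and C7 and Csmd1 fell, 4 of 28 called, a share close to the 12.1% of all tested genes.

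**Figure D5:**
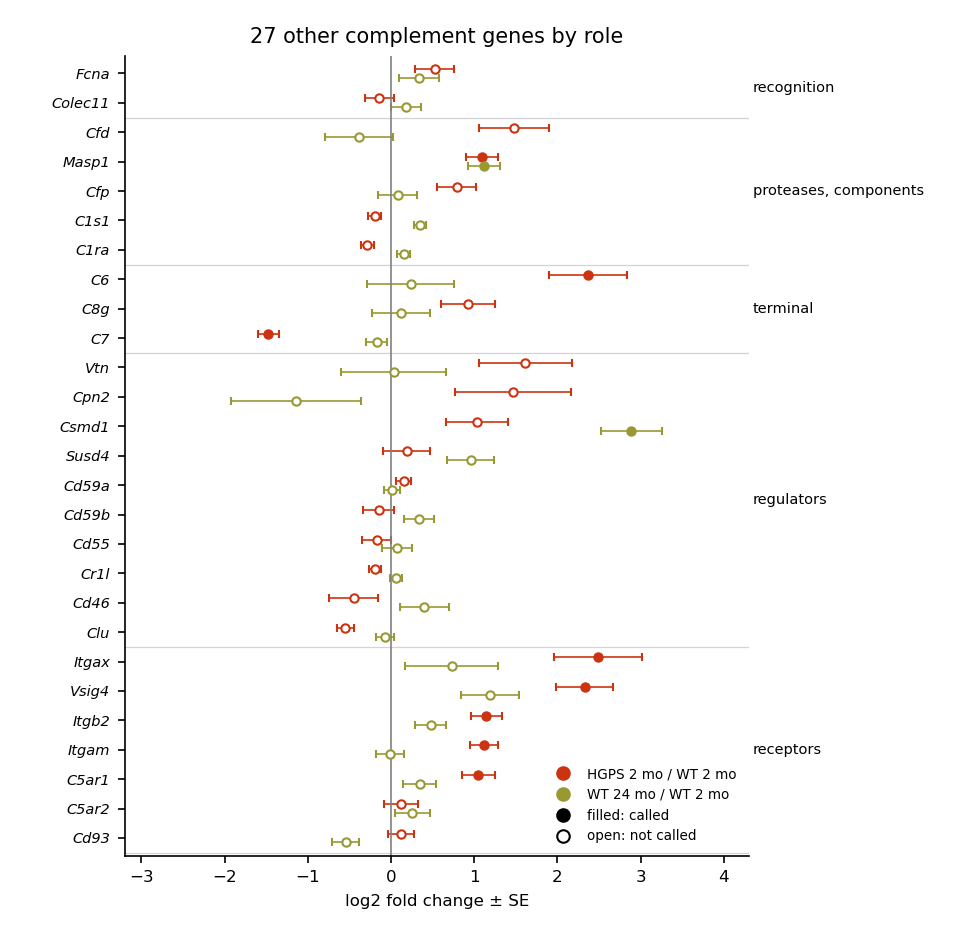
Log2 fold change ± SE (x axis) of 27 of the 28 complement genes outside the 9 (y axis, grouped by role) in HGPS against 2-mo WT mice and in 24-mo against 2-mo WT mice, colored by comparison; filled points were called. Of 7 receptors, 5 lie to the right and were called in HGPS mice, and C7 lies at -1.48.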

How the data were processed

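The authors assigned paired-end reads of stranded, ribosome-depleted total RNA libraries to GENCODE M23 transcripts (GRCm38.p6) with salmon and collapsed them to genes with tximport. What they deposited are estimated counts, as whole numbers without normalization. The submitters' processing notes also name Bowtie 0.12.2. How salmon treated strand is not given in the sources used here. Symbols, coordinates and transcript lengths came from GENCODE M21 on the same assembly, in which 54107 of 54281 identifiers were found.

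A gene entered when 6 or more mice had 10 or more counts (15210 genes). Counts were scaled with TMM and tested with edgeR 4.0.16 (R 4.3.3, quasi-likelihood, all 3 groups in one fit, 15 residual degrees of freedom), with Benjamini-Hochberg adjustment over the genes tested. A call needs 1.5-fold and an adjusted p under 0.001, the cut-offs of the study. The study, which used DESeq2, reported more such genes in HGPS against 2-mo WT mice than the fits here. These gave 1445 with edgeR and 1923 with DESeq2. Standard errors were taken as log2 fold change over the square root of F. Correlations used log2 CPM with a prior count of 2. DESeq2 1.42.0 was an alternative, and the procedure was tested on simulated data. Totals of 12413229 to 30844775 counts per mouse set the precision. No pair of replicates was a duplicate library (chi-square per degree of freedom at least 7.77 over 45 pairs).

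The members, the gene lists and the tests were chosen with earlier results of these data known. Named were all 9 members, other complement genes called in any comparison, the gene of highest level in each list and the genes most like each member. C1ra, C1s1, the members of a list that missed the filter, and Mertk were named after their values were seen. Another gene that the rule names is not reported here. For the correlations, a score was the mean deviation from the group mean in log2 CPM over a marker list. As a covariate, a score was the mean log2 CPM of the list, standardized over all mice, so group differences stayed in it. Groups and replicate numbers came from the labels. The mice are separate animals, and equal numbers in different groups do not pair them: r between same-numbered mice ran from -0.16 to 0.17.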

Additional observations from a re-analysis of the deposited data

Results flagged for a closer look

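The highest or lowest mouse of each group was examined for the 9 genes, 27 groups in all, and 3 stood far from the nearest other mouse of their group by Dixon's ratio at the 95% level. Chance alone gives about 1 in 20. In HGPS replicate 6, C4b was at 706.9 CPM where the next HGPS mouse was at 304 CPM, and Cfb was at 168.7 CPM where the next was at 109 CPM. The same mouse had the highest C1qa, C1qb, C1qc, C2 and C3 of the HGPS group and the highest macrophage marker sum, 1751 CPM. In 24-mo WT replicate 1, Serping1 was at 418.6 CPM, below the next mouse at 527 CPM. The cause was not tested.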

How the results depend on the processing

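The count of complement genes called in HGPS against 2-mo WT mice (4) was 0 when the 1.5-fold change itself was tested (glmTreat), 0 with fat scores and 0 with the macrophage score as covariates, 6 with DESeq2, and 8 at an adjusted p under 0.05 alone. Leaving out 1 mouse gave 2 to 4. In 24-mo against 2-mo WT mice (0), DESeq2 gave 1, an adjusted p under 0.05 gave 2, and leaving out 1 mouse gave 0 to 1, with C2 gained without 24-mo WT replicate 1. In HGPS against 24-mo WT mice (5), the replicate number as a block gave 3, the 2 groups alone 3, glmTreat 0, fat scores 0, the macrophage score 0, an adjusted p under 0.05 gave 9, and leaving out 1 mouse gave 1 to 5. With the block, which rests on numbers that do not pair the mice, the other counts were 3 (HGPS against 2-mo WT, C3ar1 lost) and 0 (aging).

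Signs turned only where a value was not called or the macrophage score entered. With that score, HGPS against 2-mo WT gave C1qa -0.22, C1qb -0.0013 and C1qc -0.31 (log2). In 24-mo against 2-mo WT mice, fat scores gave C1qa 0.036, C1qc 0.021, C4b -0.041 and Cfb -0.024, and the macrophage score gave C1qb -0.21 and C3ar1 -0.029. Leaving out 1 mouse there gave C1qa -0.25 to 0.011, C1qb -0.098 to 0.14, C1qc -0.24 to 0.011 and C3ar1 -0.047 to 0.20. The cause of these turns was not tested.

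Over all tested genes, HGPS against 2-mo WT mice gave 1445 calls, but 143 with glmTreat, 414 with fat scores and 121 with the macrophage score. HGPS against 24-mo WT mice gave 1845, but 351, 690 and 561. Aging gave 304, but 481 with DESeq2 and 74 with glmTreat. The scores differ between the groups themselves, so these fits remove part of the group difference by construction. With 6 mice a group, C3ar1, C6, Itgax, Vsig4 and Masp1 rest on few counts.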

Other observations

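The C1q chains did not keep one ratio, although their proteins are used in equal numbers. Per transcript length, C1qc to C1qb was 0.872 ± 0.017 (0.844 to 0.893) in 2-mo WT, 0.703 ± 0.056 (0.648 to 0.802) in HGPS and 0.801 ± 0.089 in 24-mo WT mice (SD, n = 6). HGPS and 2-mo WT mice did not overlap (two-sided exact permutation test, p = 0.00216, the smallest it can give, adjusted p = 0.0130 over 9 ratio tests). C1qa to C1qc was 1.79 ± 0.076 in HGPS, 1.60 ± 0.077 in 2-mo WT and 1.58 ± 0.12 in 24-mo WT mice (exact permutation test, adjusted p = 0.0130 for HGPS against either WT group). C1qa to C1qb was 1.26 ± 0.056, 1.39 ± 0.066 and 1.26 ± 0.10 (HGPS, 2-mo WT, 24-mo WT). Against 2-mo WT mice it was lower in HGPS (exact permutation test, adjusted p = 0.0195) and in 24-mo WT mice (exact permutation test, adjusted p = 0.0468). HGPS and 24-mo WT mice did not differ in it (exact permutation test, adjusted p = 0.968), so this shift was not particular to HGPS mice. The ratios share chains, were chosen after their values were seen, and depend on how reads were assigned to the transcripts of each gene.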
